A study of Mus musculus with 45 samples.

Results

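Nrp1-deficient and Nrp1-sufficient regulatory T cells (Tregs) of heterozygous mice were compared in non-draining lymph nodes, with 5 libraries of each kind among the 45 RNA-seq libraries of the study. HetNrp1def stands here for the genotype label Het_Nrp1-, Tregs without neuropilin-1 (Nrp1), and HetWT for the label Het_WT, Tregs that keep it. Both kinds came from heterozygous mice with B16 tumours, which grow from a melanoma line put into mice. Each library was made from 5000 sorted Tregs. Libraries ds1 and ds2 are read here as double sorted from their names, and numbers 2, 3 and 4 as sorted a single time. The labels do not say which libraries were sorted in which way. The design asks whether Tregs without Nrp1 differ from Nrp1-sufficient ones in mice that carry both kinds. As background on such mice, Cre driven by the X-linked Foxp3 gene leaves a heterozygous female with a mosaic of Tregs that have and have not lost a floxed Nrp1 gene, so the deletion is limited to cells that express Foxp3. The sources used here give neither the age of the mice nor the exons deleted. The labels do not tie replicates to animals, and the p-values therefore describe only how far these samples differ among themselves, which may be technical.

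Tregs are CD4 T cells that depend on the transcription factor Foxp3 and restrain other immune cells. Nrp1 is a surface protein that binds semaphorins and vascular growth factors together with other receptors, and many Tregs that arise in the thymus carry it. On mouse Tregs it binds semaphorin-4a on neighbouring cells, and its signal holds back the kinase Akt, which keeps Foxo transcription factors in the nucleus. In tumours this signal is known to support Treg survival and suppressive function, and mice whose Tregs lack it are known not to develop overt autoimmune disease.

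Libraries 3 and 4 of each kind differed by little more than counting noise, with a chi-square per degree of freedom of 2.42 for HetNrp1def and 2.75 for HetWT, and the heterozygous tumour groups held 1 such pair each (ds1 and 4), so that 4 pairs of libraries of one group lay between 2.42 and 2.75. All other pairs of one group in the study were at 68.4 or more. The lymph node pairs were summed to 1 sample, called 3+4, which left 4 samples per kind. Total counts per sample ran from 5001398 to 26023347 for HetNrp1def and from 4089172 to 35787148 for HetWT. The ds1 samples stood apart. Their mean correlation with the other samples of their kind was 0.581 for HetNrp1def and 0.596 for HetWT, against 0.691 to 0.734 for the rest, and results are therefore also given without them. The ds2 libraries of the 2 kinds had a chi-square per degree of freedom of 20.6 and r = 0.920. That was closer than any pair of one group outside the 4 near-identical pairs. It was not particular to these kinds, since HetWT ds2 stood at 20.3 and 20.6 against the ds2 libraries of other lymph node groups. Across the study, 38 of 900 pairs of different groups lay below 68.4. The ds2 samples also had the lowest total counts of each kind. Levels are given below as CPM, library counts brought to 1 common total with TMM factors. In a principal component analysis of their log2 values, the leading axis held 42.5% of the variance. The replicate number accounted for 78.6% of it and the genotype for 5.85%. On that axis HetNrp1def ds1 scored 271 and HetWT ds1 66.8. The second axis held 24.05%, with 21.5% of it by number and 20.4% by genotype. These shares are not like for like, since the number has more levels than the genotype. The replicate number entered the model as a block.

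**Figure D1:**
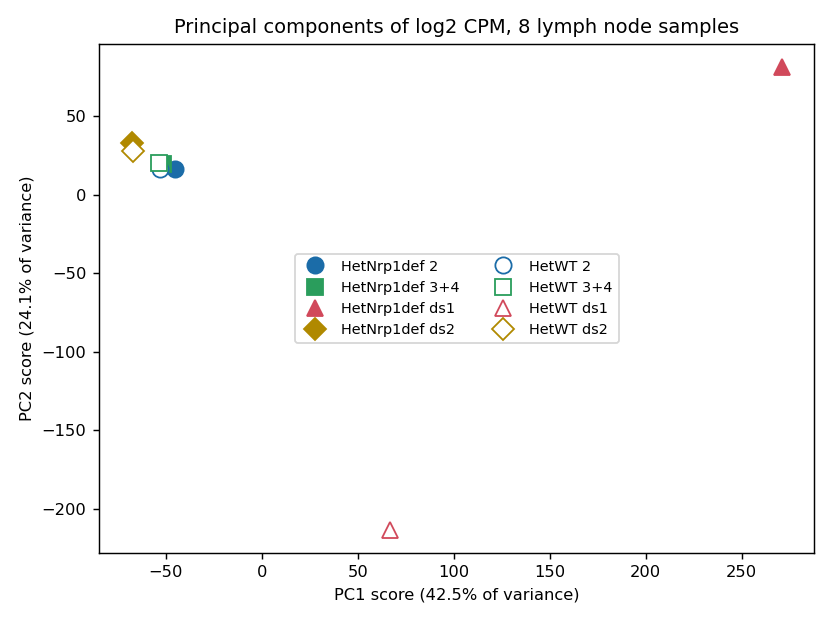
Scores of the 8 lymph node samples on the first and second principal components of log2 CPM, with filled symbols for HetNrp1def, open symbols for HetWT and 1 symbol shape per replicate number. The ds1 samples lie far from the others and from each other, and the other 6 samples lie together, with the ds2 pair side by side.

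Nrp1, the targeted gene (chromosome 8, 128358604 to 128503363, plus strand, mm10 with GENCODE vM21), was lower in HetNrp1def Tregs in 4 of 4 same-numbered pairs. It stood at 141, 134, 360.1 and 137 CPM in HetNrp1def samples 2, 3+4, ds1 and ds2, against 196, 295, 1530.5 and 319.6 CPM in the HetWT samples of the same numbers. The HetNrp1def ds1 sample lay above 3 of the HetWT samples, so the groups overlapped, while the other 3 HetNrp1def samples lay below all HetWT samples. The means were 193 ± 111 CPM in HetNrp1def and 585 ± 632 CPM in HetWT (SD, n = 4 each), and the log2 fold change was -1.23 (SE 0.315). In edgeR's quasi-likelihood test Nrp1 ranked 6 by p among the 10654 genes tested, with a Benjamini-Hochberg adjusted p of 0.980. A two-sided exact permutation test of log2 CPM gave p = 0.114 (adjusted p = 0.343 over 3 genes), where 4 samples against 4 allow no p below 0.0286. With the pairs kept, the exact p was 0.125, the smallest that 4 pairs can give. Within the single-sorted samples the log2 fold change was -0.81, within the double-sorted ones -1.56, and without ds1 -0.96. The counts cover the whole gene, and because the deleted exons are not known they do not check the knockout. In bulk samples such as these, fewer cells with a transcript and less of it per cell cannot be told apart.

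Foxp3 (chromosome X, 7573644 to 7595245, plus strand), which defines Tregs, was barely counted in most samples. It stood at 1.86, 3.75, 0.950 and 59.5 CPM in HetNrp1def samples 2, 3+4, ds1 and ds2, against 2.33, 17.8, 1.96 and 30.1 CPM in HetWT. The ds2 sample was the highest of each kind, the groups overlapped, and the log2 fold change was -0.64 (SE 0.794), lower in 3 of 4 pairs, with an exact permutation p of 0.83. Other genes that mark Tregs were abundant. Il2ra, the high-affinity subunit of the interleukin-2 receptor, ran from 446.5 to 1146 CPM in HetNrp1def and from 415 to 799 CPM in HetWT. The T cell genes Cd3e and Cd4 were present in all 8 samples. Ifng (chromosome 10, 118441046 to 118445892, plus strand), the gene of the cytokine interferon gamma, stood at 19.2, 4.02, 0 and 3.67 CPM in HetNrp1def and at 35.2, 11.4, 236 and 1.32 CPM in HetWT. Its log2 fold change of -1.56 (SE 1.93) had an exact permutation p of 0.257 (adjusted p = 0.386), and the ds1 samples held both its lowest and its highest value; without them the log2 fold change was -0.42.

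Across all genes, edgeR's quasi-likelihood test with Benjamini-Hochberg adjustment called 0 of 10654 genes (0%) at an adjusted p of 0.05. The adjusted p was 0.980 or more for every gene, those named below included. At an unadjusted p of 0.05, 106 genes (0.995%) passed, 79 of them lower (0.742%) and 27 higher (0.253%) in HetNrp1def. That split was 268 lower and 214 higher without ds1, and 138 lower and 238 higher without the replicate block. DESeq2 called 11 genes and gave 609 at an unadjusted p of 0.05. The median log2 fold change over all genes was -0.073, and 53.3% of genes lay below 0. The median standard error of a log2 fold change was 0.877, falling to 0.462 among the 2348 genes over 100 CPM, so that differences of the size seen for Nrp1 were not separable from sample spread after adjustment. Genes are named below by their rank and their direction in the 4 pairs, and none of them passed the adjusted threshold.

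Genes of activated and effector Tregs, the state in which Tregs leave the resting pool and acquire tissue and suppressor programmes, lay mostly on the lower side in HetNrp1def. Of 21 listed genes 20 could be tested, and 19 of these had a log2 fold change below 0 (95%, against 53.3% of all genes), with a median of -0.716 against -0.073 over all genes. None was called, 5 had an unadjusted p below 0.05, all lower (0.742% of all genes), and 6 were lower in 4 of 4 pairs (7.44% of all genes). Those 5 were Maf, Klrg1, Prdm1, Icos and Nfil3. The 1 member above 0, Bcl6, had a log2 fold change of 0.86 (SE 0.627). It was higher in 4 of 4 pairs (5.8% of all genes). On the log2(CPM + 1) scale, the list's median differences in pairs 2, 3+4, ds1 and ds2 were -0.75, -0.74, -0.87 and -0.46. Over all genes the medians were -0.015, 0.010, -0.316 and 0.026, so the ds1 pair lay lower for genes at large as well. Within these pairs, 13, 15, 14 and 16 of the 20 members were lower in HetNrp1def. Without ds1, 16 of 20 members lay below 0 and the median was -0.844.

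Maf (chromosome 8, 115682942 to 115707794, minus strand) encodes c-Maf, a transcription factor that drives Il10 in T cells. It stood at 172, 141, 385 and 69.7 CPM in HetNrp1def samples 2, 3+4, ds1 and ds2, against 238, 316, 1461 and 123 CPM in HetWT, a log2 fold change of -1.09 (SE 0.310). Each HetNrp1def sample was below its own partner, but the groups overlapped because the level moved with the number, highest in ds1 and lowest in ds2 of each kind. Klrg1 (chromosome 6, 122270596 to 122282882, minus strand), an inhibitory receptor of terminally differentiated Tregs, did not overlap between the kinds. It stood at 25.4, 4.05, 15.4 and 19.6 CPM in HetNrp1def and at 68.5, 79.5, 155 and 51.9 CPM in HetWT, with a log2 fold change of -2.60 (SE 0.837). Prdm1, the gene of Blimp-1, which marks effector Tregs, had 3.50, 17.0, 0.475 and 17.1 CPM in HetNrp1def, against 46.1, 41.2, 4.41 and 38.0 CPM in HetWT. Apart from the low ds1 pair its groups did not overlap, and the log2 fold change was -2.26 (SE 0.782). Icos, a costimulatory receptor of effector Tregs, had 196, 253, 626 and 358 CPM in HetNrp1def and 434, 491, 642 and 558 CPM in HetWT (log2 fold change -0.70, SE 0.260). Here the ds1 pair was nearly level, and without it the log2 fold change was -0.93. Nfil3, a basic leucine zipper factor, had 3.50, 10.1, 0.237 and 3.99 CPM in HetNrp1def, all below the 13.8, 34.1, 37.7 and 15.4 CPM of HetWT. Tnfrsf4, the OX40 receptor, was the most abundant listed gene and showed no direction, with 692, 893, 777 and 615 CPM in HetNrp1def, 930.0, 703, 639 and 808 CPM in HetWT, and a log2 fold change of -0.05 (SE 0.216, 95% interval -0.57 to 0.47).

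**Figure D2:**
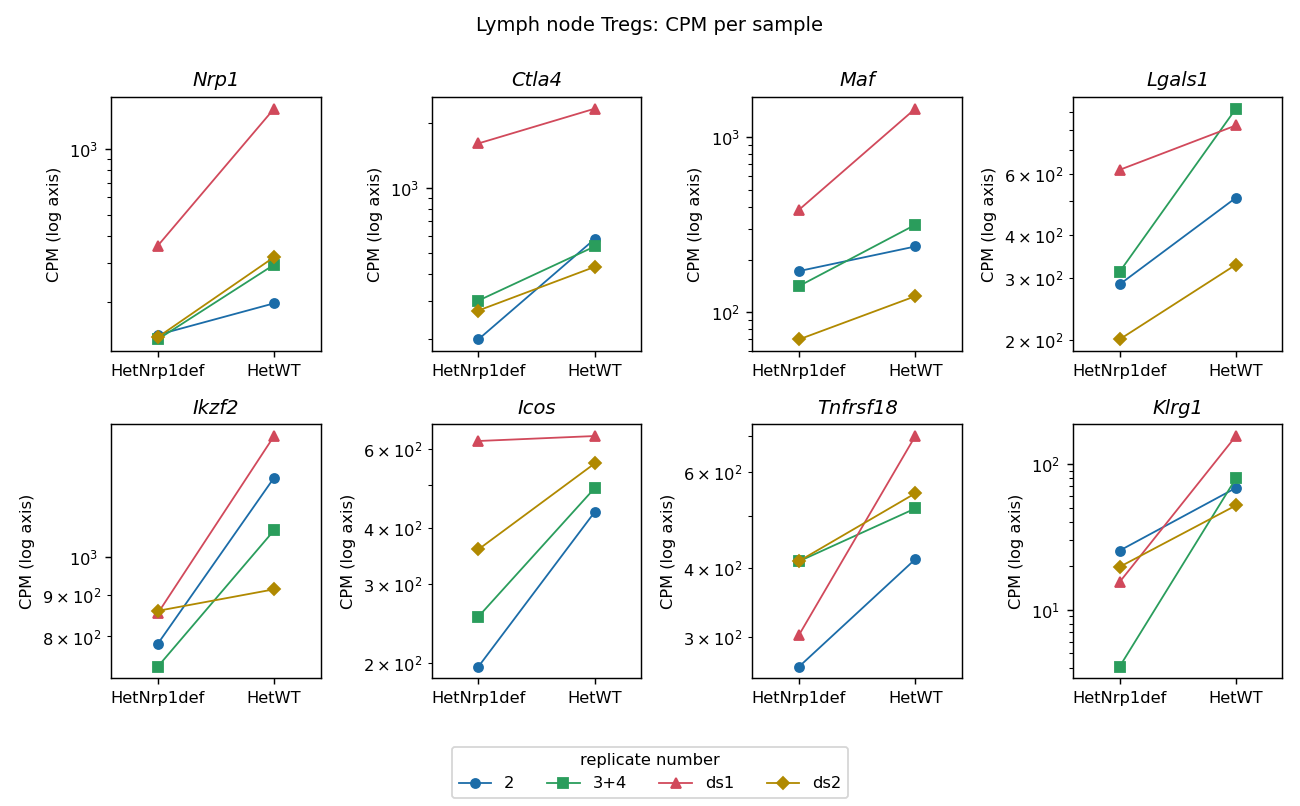
CPM on log axes of 8 genes in each HetNrp1def sample (left) and HetWT sample (right), with lines joining samples of 1 replicate number. All 8 genes are lower in HetNrp1def in 4 of 4 pairs, and Ikzf2, Tnfrsf18 and Klrg1 do not overlap between the kinds, while for Nrp1, Ctla4 and Maf the ds1 pair lies far above the other samples of its kind.

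Suppressive mediators are the molecules through which Tregs act on other cells. Of 18 tested, 12 lay below 0 (66.67%, against 53.3% of all genes), with a median of -0.899. In 4 of 4 pairs 6 were lower (7.44% of all genes). Ctla4 and Lgals1 had the lowest p of the list. Ctla4 (chromosome 1, 60887000 to 60915832, plus strand) encodes the receptor that removes costimulatory ligands from antigen-presenting cells. It stood at 199.7, 302, 1605 and 271 CPM in HetNrp1def and at 581, 537, 2324 and 432 CPM in HetWT. The ds1 samples were several times above the rest, the other 3 HetNrp1def samples lay below all HetWT samples, and the log2 fold change was -0.89 (SE 0.223). It was -1.19 within the single-sorted samples and -0.51 within the double-sorted ones. Lgals1 (chromosome 15, 78926725 to 78930465, plus strand), which encodes the secreted lectin galectin-1, stood at 288, 313, 615 and 200.4 CPM in HetNrp1def and at 511, 921, 824 and 328 CPM in HetWT. Its log2 fold change was -0.88 (SE 0.253), lower in 4 of 4 pairs with overlapping groups, and -0.47 within the double-sorted samples. Nt5e, the ectoenzyme CD73 that makes adenosine, had 175, 121, 1116 and 161 CPM in HetNrp1def and 218, 150.5, 274 and 167 CPM in HetWT. It was lower in 3 of 4 pairs, but the HetNrp1def ds1 sample set its log2 fold change at 0.30 (SE 0.472), which was -0.24 without ds1.

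Treg identity genes lay below 0 in 15 of 19 cases (78.95%, against 53.3% of all genes), with a median of -0.254. In 4 of 4 pairs 4 were lower (7.44% of all genes). The lists share genes, so their counts are not independent. Ctla4 and Entpd1 were lower in 4 of 4 pairs and, like Nt5e, are also among the suppressive mediators. Tnfrsf4, Tnfrsf9 and Itgae are also in the activated and effector list. Without ds1, 15 of 19 identity genes again lay below 0 and the median was -0.452. In the double-sorted samples alone 8 of 19 lay below 0 with a median of 0.059. Ikzf2 (chromosome 1, 69531214 to 69687245, minus strand), the gene of Helios, a zinc finger factor of thymus-derived Tregs, stood at 783, 735, 854 and 859.9 CPM in HetNrp1def and at 1252, 1079, 1408 and 914 CPM in HetWT. The groups did not overlap, which held for 0.948% of all genes in that direction, although the ds2 pair differed little. The log2 fold change was -0.51 (SE 0.178). Tnfrsf18, the GITR receptor, had 264, 412, 302 and 413 CPM in HetNrp1def, all below the 416, 515, 699 and 549 CPM of HetWT, with a log2 fold change of -0.65 (SE 0.242). The gap between the highest HetNrp1def and the lowest HetWT value was smaller than the spread within either kind.

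**Figure D3:**
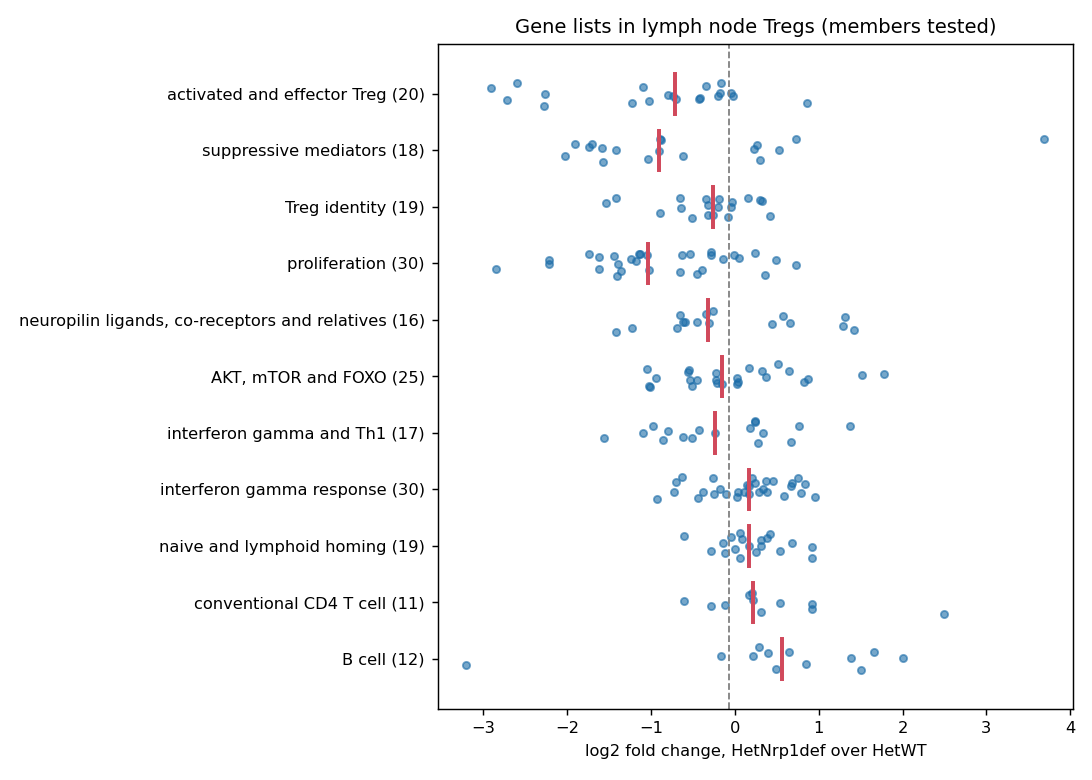
Log2 fold changes (HetNrp1def over HetWT) of the tested members of 11 gene lists, 1 point per gene, with the list median as a red bar and the median of all 10654 genes as a dashed line at -0.073. The activated and effector Treg, suppressive mediator and proliferation lists have medians of -0.716, -0.899 and -1.037, and the B cell list has 0.569.

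Proliferation genes, which are transcribed in cycling cells, had the lowest median of the lists of Treg programmes. All 30 were tested and 25 lay below 0 (83.33%, against 53.3% of all genes). The median was -1.037, and 11 were lower in 4 of 4 pairs (7.44% of all genes). None was called, and 2 had an unadjusted p below 0.05, Rrm2 and Birc5. The median was -0.644 without ds1, where 27 of 30 lay below 0. Rrm2, the regulated subunit of ribonucleotide reductase, stood at 108, 59.9, 142 and 31.6 CPM in HetNrp1def, against 117, 136, 1008 and 79.7 CPM in HetWT. Its log2 fold change was -1.35 (SE 0.504), pair 2 was nearly level, the groups overlapped, and without ds1 it was -0.89. Birc5, the gene of survivin, which acts in chromosome segregation, had 96.5, 76.8, 48.9 and 13.2 CPM in HetNrp1def and 122, 226, 323 and 29.5 CPM in HetWT (log2 fold change -1.44, SE 0.571). Mki67, the gene of the Ki-67 antigen, was lower in 3 of 4 pairs, with 154, 165, 219 and 133 CPM in HetNrp1def and 127, 329, 419.6 and 184 CPM in HetWT. Top2a, the topoisomerase that untangles replicated chromosomes, was lower in the same 3 pairs, with 140.4, 153, 56.3 and 69.1 CPM in HetNrp1def and 93.3, 299, 841 and 111 CPM in HetWT. The log2 fold changes were -0.53 (SE 0.357) for Mki67 and -1.13 (SE 0.763) for Top2a, and without ds1 they were -0.41 and -0.37. For Top2a the single-sorted samples alone gave -0.19 and the double-sorted ones -2.19.

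Further mitotic genes outside that list stood among those of low p. Dlgap5 (chromosome 14, 47387779 to 47418407, minus strand), a spindle protein, had 0.743, 7.04, 1.66 and 7.66 CPM in HetNrp1def, all below the 24.5, 34.5, 15.9 and 24.4 CPM of HetWT, with a log2 fold change of -3.00 (SE 0.843). Espl1, the gene of separase, which parts sister chromatids, had 1.49, 1.12, 1.42 and 0.319 CPM in HetNrp1def and 20.8, 17.5, 4.17 and 3.01 CPM in HetWT. Pif1, a DNA helicase, had 5.10, 0.922, 0.475 and 0 CPM in HetNrp1def and 25.5, 16.8, 3.43 and 5.64 CPM in HetWT. Espl1 did not overlap between the kinds, and Pif1 overlapped because HetNrp1def sample 2 lay above HetWT sample ds1. Both were chosen after their values were seen.

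The promoters of the 3 most abundant proliferation genes are shown because the genes of this list lay on the lower side together, and promoters of cell cycle genes are known to share the CCAAT box and the cell cycle homology region. Each runs from 250 bases before to 50 bases after the start site (RefSeq, GRCm38.p6, 5′ to 3′ on the strand of the gene), with matches to CCAAT and to TTTGAA or TTCGAA in capitals, on either strand. The windows are chr11:99024140-99024439, minus strand, for Top2a, chr7:135716330-135716629, minus strand, for Mki67 and chr12:24708004-24708303, plus strand, for Rrm2.
Top2a: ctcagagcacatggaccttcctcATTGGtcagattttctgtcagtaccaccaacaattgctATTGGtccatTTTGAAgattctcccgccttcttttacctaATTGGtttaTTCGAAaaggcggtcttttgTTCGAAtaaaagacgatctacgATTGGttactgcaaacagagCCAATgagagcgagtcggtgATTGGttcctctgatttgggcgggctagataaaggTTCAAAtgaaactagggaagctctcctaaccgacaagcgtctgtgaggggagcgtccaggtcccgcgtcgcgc
Mki67: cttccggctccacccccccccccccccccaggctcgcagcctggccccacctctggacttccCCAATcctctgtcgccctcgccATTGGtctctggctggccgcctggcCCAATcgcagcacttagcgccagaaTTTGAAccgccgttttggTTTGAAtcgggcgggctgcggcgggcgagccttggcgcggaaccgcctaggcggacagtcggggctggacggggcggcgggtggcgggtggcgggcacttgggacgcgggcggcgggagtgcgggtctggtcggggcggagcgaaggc
Rrm2: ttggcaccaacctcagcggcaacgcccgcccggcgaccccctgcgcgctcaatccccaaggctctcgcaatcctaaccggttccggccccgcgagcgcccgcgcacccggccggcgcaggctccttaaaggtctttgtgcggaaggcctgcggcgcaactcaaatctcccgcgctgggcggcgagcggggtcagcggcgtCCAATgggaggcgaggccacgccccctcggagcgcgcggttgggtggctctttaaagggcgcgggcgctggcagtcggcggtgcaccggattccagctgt
The motifs were searched as plain letters, so that TTCAAA and ATTGG are the same motifs read from the other strand, TTCGAA reads the same on both, and matches do not overlap between CCAAT and the others. Top2a holds 6 matches to CCAAT and 4 to TTTGAA or TTCGAA, Mki67 holds 3 and 2, and Rrm2 holds 1 and 0. Of 30 proliferation genes 25 had a promoter in the table. CCAAT was found in 92.0% of those 25 genes and in 41.1% of all 27025 genes with a promoter, and TTTGAA or TTCGAA in 60.0% and 21.7%. These shares describe the sequences, which do not depend on the samples.

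Besides Nrp1 itself, the receptors, ligands and partners of neuropilins showed no shared direction. Of 33 listed genes 16 were expressed enough to be tested, 10 of them lay below 0 and the median was -0.322, and Nrp1 was the only one lower in 4 of 4 pairs. Sema4d, a semaphorin of T cells that signals through plexin B receptors, had 175, 206, 47.2 and 126 CPM in HetNrp1def and 220.3, 190.2, 248 and 154 CPM in HetWT (log2 fold change -0.69, SE 0.529). Its groups overlapped, pair 3+4 was higher in HetNrp1def, and without ds1 the log2 fold change was -0.18. Plxnc1, a plexin that serves as a semaphorin receptor, had 50.1, 36.1, 179 and 53.6 CPM in HetNrp1def and 137, 33.6, 6.13 and 39.5 CPM in HetWT, and its log2 fold change of 0.66 (SE 1.18) was -0.31 without ds1. Sema4a, the ligand of Nrp1 on Tregs, had 53.3, 57.6, 5.46 and 39.7 CPM in HetNrp1def and 33.7, 13.8, 7.60 and 53.4 CPM in HetWT, higher in 2 pairs and lower in 2. Downstream of the receptor, the AKT, mTOR and FOXO genes split evenly, with 13 of 25 below 0 and a median of -0.148. Foxo1, the factor that Akt keeps out of the nucleus, had 379, 441, 1099.8 and 244 CPM in HetNrp1def and 381, 391, 553 and 192 CPM in HetWT (log2 fold change 0.37, SE 0.246). Pik3r1, the regulatory subunit of PI3 kinase, had a log2 fold change of -0.21 (SE 0.326) and Rps6, a ribosomal protein phosphorylated downstream of mTOR, of 0.32 (SE 0.254). Without ds1 the log2 fold changes were 0.16 for Foxo1, -0.35 for Pik3r1, 0.026 for Rps6 and 0.75 for Sema4a, against 0.44 for Sema4a with it.

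Genes of interferon gamma signalling and the Th1 programme did not lean to either side, with 9 of 17 below 0 and a median of -0.237, which became -0.010 without ds1. Jak1, the kinase of the interferon receptors, had 2935, 1889.8, 14547 and 712 CPM in HetNrp1def and 2334, 1872, 6919 and 738 CPM in HetWT (log2 fold change 0.34, SE 0.201). Its ds1 samples held several times more than the others, and without them the log2 fold change was 0.086. Irf1, a transcription factor induced by interferon gamma, had 286, 269, 173 and 376 CPM in HetNrp1def and 231, 369, 471 and 247 CPM in HetWT, higher in 2 pairs and lower in 2, with a log2 fold change of -0.24 (SE 0.405) that was 0.14 without ds1. Genes induced by interferon gamma lay mostly on the higher side in HetNrp1def. Of 30 such genes, 10 lay below 0 (33.33%, against 53.3% of all genes) and 20 above, with a median of 0.172. Within the same-numbered pairs, from 12 to 14 of the 30 were lower in HetNrp1def. edgeR called 0 of them, and 0 had an unadjusted p below 0.05. For a typical member over 100 CPM, the median standard error of 0.462 left a difference of 0.172 undetectable at this depth and sample number. That limit holds for single genes, and the lean of the list as a whole was not tested.

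Genes of naive and lymph node homing T cells lay mostly on the higher side in HetNrp1def, with 14 of 19 above 0 and a median of 0.170 (46.7% of all genes lay above 0), and 3 were higher in 4 of 4 pairs (5.8% of all genes). On the authors' deposited log2 values 13 of 19 lay below 0 with a median of -0.165, so that the direction of the list depended on the values used. Itgb7, an integrin chain for homing to the gut, had a log2 fold change of 0.08 (SE 0.198), and Ets1, a transcription factor of resting T cells, of 0.39 (SE 0.311), which was 0.035 without ds1. Tcf7 (TCF-1) and Igfbp4, which mark naive T cells, did not overlap between the kinds, as did 0.526% of all genes in that direction. Tcf7 stood at 250.2, 336, 301 and 307 CPM in HetNrp1def and at 249.9, 217, 141 and 227 CPM in HetWT, the pair 2 values being all but equal, with a log2 fold change of 0.54 (SE 0.311), or 0.35 without ds1. Igfbp4 stood at 143, 135, 191 and 127 CPM in HetNrp1def and at 102, 100.4, 78.4 and 44.7 CPM in HetWT, with a log2 fold change of 0.92 (SE 0.479). Over all settings run, the lowest log2 fold changes were 0.079 for Tcf7 and 0.074 for Igfbp4. Bach2 had the lowest log2 fold change of the list, -0.60 (SE 0.779), and was lower in 3 of 4 pairs.

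Conventional CD4 T cells carry the same naive genes, and 8 of 11 of their listed markers lay above 0, with a median of 0.222. Their summed level ran from 1848 to 4538 CPM in HetNrp1def and from 1490 to 2675 CPM in HetWT, and 8 of the 11 markers are also in the naive list. Cd40lg, the CD40 ligand of conventional helper cells, had 16.7, 32.3, 55.5 and 25.9 CPM in HetNrp1def, all above the 6.16, 10.1, 0.245 and 7.89 CPM of HetWT (log2 fold change 2.50, SE 1.16, and 1.60 without ds1). B cell markers lay above 0 in 10 of 12 cases, with a median of 0.569, and their summed level ran from 723.9 to 2419 CPM in HetNrp1def and from 398.1 to 2453 CPM in HetWT. Cd79a, a chain of the B cell receptor, ran from 0.237 to 40.3 CPM in HetNrp1def and from 0.981 to 34.2 CPM in HetWT. The part of conventional T cells and B cells in the differences above was not tested. Markers shared by all T cells had a median of 0.178, with summed levels of 5195 to 13930 CPM in HetNrp1def and 4867 to 11120 CPM in HetWT. Summed CD8 T cell markers ran from 238.6 to 609 CPM in HetNrp1def and from 216.9 to 489.8 CPM in HetWT. Those of macrophages and monocytes ran from 396.4 to 1825 CPM in HetNrp1def and from 397.1 to 1730 CPM in HetWT. Of 7 tested markers each, 3 of CD8 T cells (median -0.087) and 5 of macrophages and monocytes (median 1.287) lay above 0. Natural killer cell markers reached 907.7 CPM in the HetNrp1def ds1 sample and stayed between 11.84 and 181.8 CPM in HetWT. Of their 7 tested markers 5 lay above 0, with a median of 0.727. The part of CD8 T cells, macrophages, monocytes and natural killer cells was not tested either. Mlana, a melanoma gene, was at 0 in 3 of 4 samples of each kind, and no marker of neutrophils or of lymph node stroma was expressed enough to be tested.

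The 20 genes of lowest p, 10 in each direction, also held genes that belong to none of the Treg programmes. Nid2 (chromosome 14, 19751265 to 19811787, plus strand), a basement membrane protein, had the lowest p of all genes. It stood at 0.106, 0.263, 3.09 and 0.319 CPM in HetNrp1def and at 8.80, 7.45, 79.9 and 4.70 CPM in HetWT, without overlap, and its log2 fold change was -4.90 (SE 0.802). DESeq2 called it with an adjusted p of 2.98e-06. Nutf2, which carries the GTPase Ran into the nucleus, had 3 counts in all HetNrp1def libraries and 323 in HetWT, a ratio of 0.0132 after scaling, with an exact 95% counting interval of 0.00270 to 0.0388. Its level is uncertain, since a pseudogene copy, Nutf2-ps1, is listed at 0 in every library and reads shared between them may not have been counted. The other 3 of the 10 lower genes, beside Nrp1, Ctla4, Maf, Lgals1 and Dlgap5, were Metrn, Ptprv and Zfp772. Metrn, a secreted neurotrophic factor, had at most 7.83 CPM in HetNrp1def and from 0.432 to 31.1 CPM in HetWT. Ptprv, annotated as a processed transcript of a receptor phosphatase gene, averaged 8.37 ± 7.67 CPM in HetNrp1def and 43.6 ± 51.1 CPM in HetWT (SD, n = 4 each). Zfp772, a zinc finger gene, had at most 1.66 CPM in HetNrp1def and from 0.715 to 69.1 CPM in HetWT.

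On the higher side, Gm11346 (chromosome 13, 24596347 to 24604925, minus strand) had the lowest p. This transcribed pseudogene overlaps Ripor2 on the other strand, and since the strand setting of the counting is not given, reads of the 2 genes cannot be told apart. It stood at 176, 167, 1195 and 116 CPM in HetNrp1def and at 85.5, 75.7, 401 and 53.7 CPM in HetWT, higher in 4 of 4 pairs, with a log2 fold change of 1.22 (SE 0.268). Malat1, a nuclear RNA, stood at 4129, 3422, 3801 and 15403 CPM in HetNrp1def and at 3564, 2665, 2487 and 13031 CPM in HetWT, high in the ds2 samples of each kind, with a log2 fold change of 0.36 (SE 0.104). Ablim1, an actin-binding protein, had a log2 fold change of 0.56 (SE 0.180), with 699, 632, 2578 and 508 CPM in HetNrp1def and 468, 529, 1363 and 367 CPM in HetWT. Dusp10, a phosphatase that inactivates MAP kinases, had 55.8, 33.8, 23.5 and 18.2 CPM in HetNrp1def and 18.7, 4.98, 2.45 and 9.96 CPM in HetWT. All 3 were higher in 4 of 4 pairs with overlapping groups.

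The other higher genes of low p were scarce in HetWT. Ypel1 had 1.11, 1.09, 172 and 17.6 CPM in HetNrp1def and at most 0.980 CPM in HetWT, without overlap. Siglech, a receptor of plasmacytoid dendritic cells, had 26.7, 8.03, 157 and 0 CPM in HetNrp1def and 2.93, 0, 2.70 and 0 CPM in HetWT. Pld4, a nuclease also abundant in those cells, had 31.9, 7.57, 25.6 and 0 CPM in HetNrp1def and 10.8, 0.238, 1.23 and 0 CPM in HetWT. Both were higher in 3 pairs and at 0 in the ds2 pair. The summed dendritic cell markers ran from 123.8 to 406 CPM in HetNrp1def and from 168.4 to 615.7 CPM in HetWT, with 3 of 6 tested markers below 0, and the part of such cells was not tested. Per2, a clock gene, Dtx2, a ubiquitin ligase of the Deltex family, and Slc36a4, an amino acid transporter, had log2 fold changes of 3.11 (SE 0.926), 3.13 (SE 1.06) and 3.49 (SE 1.24), with the ds1 sample the highest of the HetNrp1def samples for each. The 11 genes that DESeq2 called were Nid2, Nutf2, Metrn, Zfp772, Kremen2, Ankrd9 and Kif7 on the lower side and Ypel1, Siglech, Lrrn3 and Dip2c on the higher side.

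**Figure D4:**
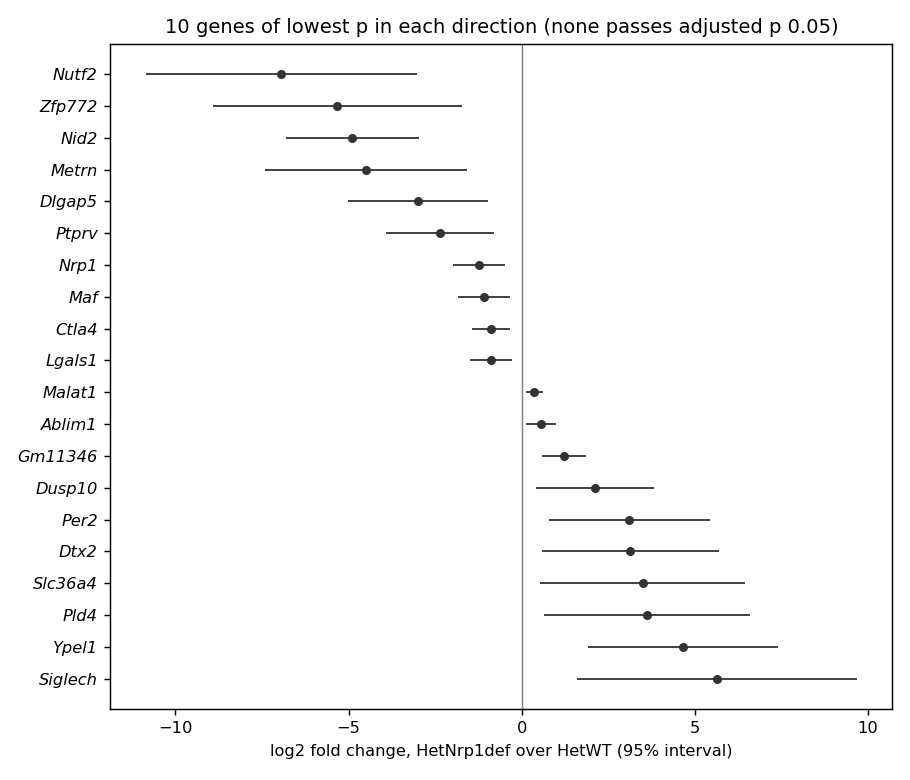
Log2 fold changes (HetNrp1def over HetWT, points) with 95% intervals of edgeR's fit (lines) for the 10 genes of lowest p in each direction. Abundant genes such as Malat1 (0.36, interval 0.108 to 0.605) and Ctla4 (-0.89, interval -1.43 to -0.35) have narrow intervals. Scarce genes such as Siglech have wide intervals, and the point for Nutf2 rests on 3 counts in HetNrp1def.

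Whether the difference was particular to the lymph node was tested against the tumour Tregs of heterozygous mice, which share no library with it. edgeR called 0 of 12577 genes for the difference between the tissues, with 233 at an unadjusted p of 0.05, and DESeq2 called 25. Among those 25 were Nid2, with a lymph node minus tumour difference of -5.04 (DESeq2 adjusted p = 1.892e-05), and Zfp772, with -9.65 (DESeq2 adjusted p = 0.0207), for which edgeR gave -5.08 and -8.75 (adjusted p = 0.9995 for each). Libraries ds1 and 4 of each heterozygous tumour group, which were near-identical, were summed. Each sum thus joins a library read as double sorted with another read as single sorted. In tumours Nrp1 averaged 162 ± 73.1 CPM for HetNrp1def against 168 ± 71.7 CPM for HetWT (SD, n = 4 each), a log2 fold change of -0.04 (SE 0.331), and the difference between the lymph node and tumour values was -1.18 (edgeR adjusted p = 0.9995). Ctla4 had a log2 fold change of -0.47 (SE 0.207) in tumour Tregs, Maf of -0.36 (SE 0.193) and Lgals1 of -0.26 (SE 0.144). Rrm2 had -1.01 (SE 0.286) there, against -1.35 (SE 0.504) in the lymph node. The activated and effector list had 11 of 20 tested members below 0 in tumour Tregs with a median of -0.160, and the proliferation list 21 of 30 with a median of -0.199. edgeR called 0 of 11136 genes in the tumour comparison itself, with 286 at an unadjusted p of 0.05.

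A further deficient group of lymph node Tregs, here called N because only its sample titles set it apart, was compared with WT Tregs in the same way. Its genotype label is the same Het_Nrp1- as that of HetNrp1def, while the design text also names homozygous deficient mice, so its genotype is not settled by the labels. Neither N nor WT shares a library with the heterozygous samples. The difference between the heterozygous and the N comparison gave 0 of 11794 calls by edgeR, with 204 at an unadjusted p of 0.05, and 17 by DESeq2. Nrp1 averaged 209 ± 75.8 CPM in N and 359 ± 68.0 CPM in WT (SD, n = 5 each), a log2 fold change of -0.82 (SE 0.248). The heterozygous minus N difference of these values was -0.43 (edgeR adjusted p = 0.9993). Ctla4 had a log2 fold change of 0.20 (SE 0.304) between N and WT, and the heterozygous minus N difference was -1.11 (edgeR adjusted p = 0.9993). Tnfrsf18 had 0.37 (SE 0.206), and the heterozygous minus N difference was -1.04 (edgeR adjusted p = 0.9993). Ikzf2 had 0.02 (SE 0.190) between N and WT, Icos 0.03 (SE 0.222) and Klrg1 -0.45 (SE 0.594). The activated and effector list had 9 of 20 members below 0 with a median of 0.026, and the proliferation list 7 of 30 with a median of 0.239. The N against WT comparison had 0 of 10152 genes called by edgeR and 214 at an unadjusted p of 0.05.

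**Figure D5:**
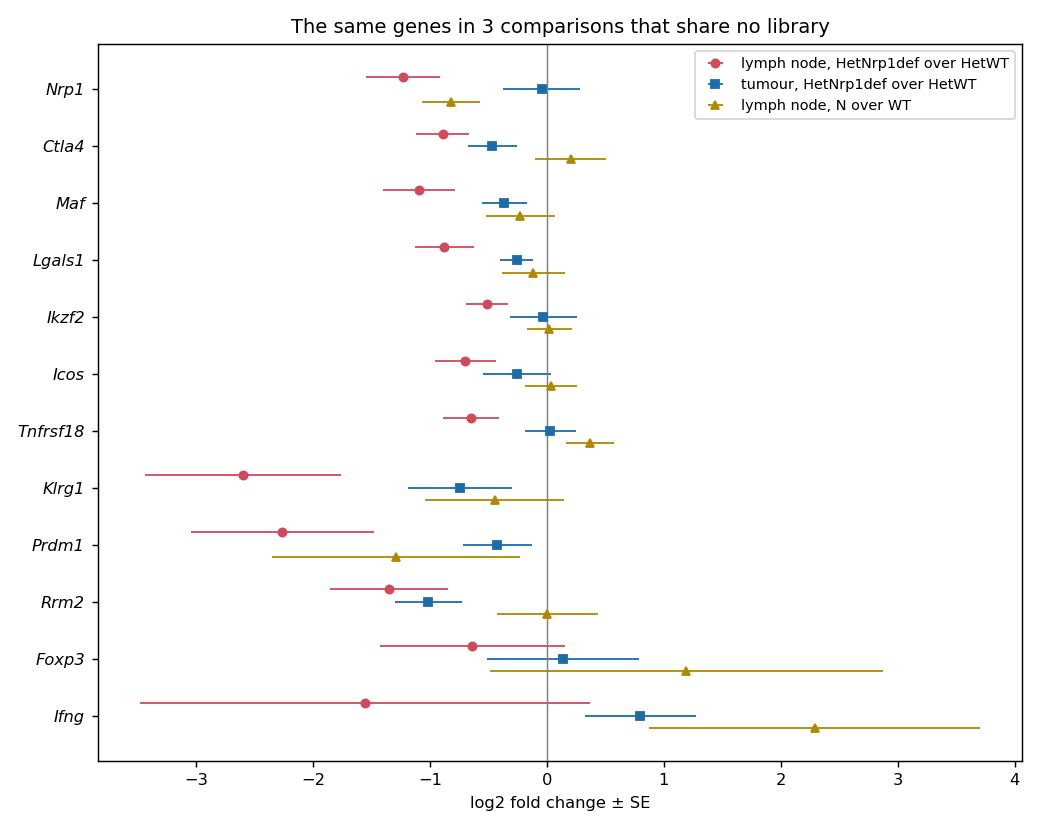
Log2 fold changes with standard errors (lines) of 12 genes in lymph node HetNrp1def over HetWT, tumour HetNrp1def over HetWT and lymph node N over WT. Nrp1 lies below 0 in the lymph node comparisons (-1.23 and -0.82) and at -0.04 in tumours. In the heterozygous comparisons Rrm2 lies at -1.35 in the lymph node and at -1.01 in tumours. Ctla4, Ikzf2, Icos and Tnfrsf18 lie below 0 in the heterozygous lymph node comparison. Between N and WT, Ctla4, Ikzf2 and Icos lie above 0 by less than their standard errors, and Tnfrsf18 lies at 0.37 (SE 0.206). No difference between comparisons passed the threshold in edgeR.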

How the data were processed

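Tregs were sorted, 5000 per library, and their RNA was amplified with the SMARTer v3 chemistry for small inputs, tagmented (Nextera XT) and sequenced on a NextSeq 500, per the labels' protocols. The deposited counts cover 23420 gene symbols. Reads were aligned to mm10 and counted by the authors, whose processing notes name STAR and featureCounts without versions; annotation and strand setting are not given there. A deposited table of log2 values covers 10832 genes after filtering, with limma named in the notes. In it every replicate number has the same mean per gene (at most 3.78e-13 apart). Of the symbols, 21777 (92.98%) matched GENCODE vM21, used for positions.

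Libraries 3 and 4 of each kind were summed because their chi-square per degree of freedom lay under 5. The main test was edgeR 4.0.16 under R 4.3.3 on these counts, with TMM scaling, filterByExpr, a robust quasi-likelihood fit and the replicate number as a block, which left 3 residual degrees of freedom. Benjamini-Hochberg adjustment ran over all 10654 genes tested, with a threshold of 0.05, and the test was tried on simulated data. DESeq2 1.42.0 on the counts and limma 3.58.1 on the deposited log2 values were alternatives, with other filters, left-out samples and single- or double-sorted samples alone. Exact permutation tests used log2(CPM + 1). Library composition affects CPM, most for the ds1 samples, whose TMM factors were 0.526 (HetNrp1def) and 0.667 (HetWT), against 1.12 to 1.31 for the others. The reads carry no molecular identifiers, so counting intervals cover counting error only.

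The members, gene lists and markers were chosen with earlier results of these data known. By rule the text names Nrp1, Foxp3 and Ifng, the 10 genes of lowest p in each direction and the 3 members of highest CPM of each list described, except for some items that are not reported here. Klrg1, Prdm1, Nfil3, Tnfrsf18, Birc5, Espl1, Pif1, Sema4a, Tcf7, Igfbp4, Cd40lg, S100a4, S100a6, Capg and the genes called by DESeq2 alone were named after their values were seen. The same holds for Bcl6 and Bach2.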

Additional observations from a re-analysis of the deposited data

Results flagged for a closer look

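In 11 of 106 sets of 4 samples tested (1 gene in 1 kind), a single sample lay further from the others than Dixon's criterion allows. For normally distributed values chance gives this in about 1 of 20 sets, but the sets share samples and are not independent. In 9 of the 11 the outlying sample was ds1. The HetNrp1def ds1 sample was high for Nrp1 (360.1 CPM, next 141), Nid2 (3.09 CPM, next 0.319), Metrn (7.83 CPM, next 0.198), Nt5e (1115.5 CPM, next 175), Rps6 (3463 CPM, next 1050.1) and S100a6 (809 CPM, next 70.2). It was low for Sema4a (5.46 CPM, next 39.7). The HetWT ds1 sample was high for Itgb7 (1831 CPM, next 477) and low for Prdm1 (4.41 CPM, next 38.0). The HetNrp1def ds2 sample was high for Malat1 (15403 CPM, next 4129), and the HetNrp1def 3+4 sample held the only reads of Nutf2 (0.0988 CPM, the others at 0). With the others at 0 any count passes the criterion, so the flag for Nutf2 rests on 3 counts alone.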

How the results depend on the processing

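The count of called genes was 0 with edgeR under every alternative run for the lymph node comparison, and 11 with DESeq2, which also called 25 genes for the difference between lymph node and tumour and 17 for that between the heterozygous and N comparisons. Without a filter on low counts edgeR called 1 gene in the last of these, Rn45s. Without the replicate block the lymph node comparison had 0 calls and 376 genes at an unadjusted p of 0.05, against 106 with it, and Nrp1 had a log2 fold change of -1.60. Same-numbered samples of the 2 kinds deviated together with r = 0.185, 0.0979, 0.216 and 0.394 for numbers 2, 3+4, ds1 and ds2, against at most 0.105 between numbers, so the samples are taken to share only a number. Nrp1 stayed below 0 under all alternatives run, between -1.60 and -0.81. Of 53 named genes 44 kept their direction in each of the 13 settings in which they had a value. In all, 26 of 678 values changed sign, and the cause was not tested. Of those 44, Nutf2 had a value in 10 settings, Pld4, Ypel1 and Zfp772 in 11, and Siglech and Slc36a4 in 12. Foxp3 turned to 0.34 and Capg to 0.13 without the block, to 0.31 and 0.028 with all 41 samples and no block, and to 0.15 and 0.83 in double-sorted samples alone. Tnfrsf4 turned to 0.065 (DESeq2), 0.034 (10 libraries unjoined), 0.005 (41 samples with the block), 0.18 (authors' deposited log2 values) and 0.042 (double-sorted). On the deposited log2 values Itgb7 turned to -0.061, in double-sorted samples Itgb7 to -0.042 and Sema4a to -0.36, and in single-sorted samples Nt5e to -0.32, Plxnc1 to -0.68 and Rps6 to -0.091. Leaving out 2, ds1 or ds2 in turn gave -0.93 to 0.059 for Capg, -0.17 to 0.077 for Tnfrsf4, -0.053 to 0.22 for Itgb7, -0.24 to 0.52 for Nt5e, -0.31 to 1.52 for Plxnc1 and -0.54 to 0.14 for Irf1. Leaving out 3+4 gave 0.065 for Capg, -0.079 for Sema4a and -0.18 for Tnfrsf4. The 4 samples per kind and the median standard error of 0.877 limit what could be called.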

Other observations

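Among gene groups not described above, immediate early genes of T cell receptor signalling had 13 of 20 tested members below 0 (median -0.375, against -0.073 over all genes), chemokines and their receptors 13 of 17 (median -0.621) and glycolysis and hypoxia genes 15 of 23 (median -0.316). Checkpoint receptors had 8 of 13 below 0, with a median of -0.419 that became -0.113 without ds1 and 0.986 in double-sorted samples alone. Oxidative phosphorylation genes had 15 of 30 below 0 (median -0.036), sterol and fatty acid synthesis genes 11 of 22 (median 0.067), type I interferon genes 12 of 25 (median 0.069) and apoptosis genes 12 of 23 (median -0.049). Genes of interleukin-2, interleukin-7 and STAT5 signalling had 6 of 15 below 0 (median 0.157), those of TGF-beta and Smad signalling 5 of 15 (median 0.217) and those of other helper lineages 4 of 9 (median 0.205). No member of these lists was called by edgeR.

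S100a4 and S100a6, calcium-binding proteins abundant in effector and memory T cells, and Capg, an actin-capping protein found in effector Tregs, depended on the ds1 pair to different degrees. S100a4 stood at 164, 71.3, 959 and 31.0 CPM in HetNrp1def samples 2, 3+4, ds1 and ds2, against 272, 248, 1416 and 46.0 CPM in HetWT, lower in 4 of 4 pairs. S100a6 stood at 70.2, 67.6, 809 and 50.3 CPM in HetNrp1def, against 147, 299, 576 and 106 CPM in HetWT, and Capg at 168, 332, 1155 and 308 CPM in HetNrp1def, against 349, 691, 270.4 and 478 CPM in HetWT. Both were lower in every pair but ds1, and without ds1 their log2 fold changes were -1.44 and -0.93, with edgeR adjusted p of 0.423 for each.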
